A study of Mus musculus with 6 samples.

Results

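The zinc finger genes named Zfp are described here in mononuclear cells of mouse skeletal muscle, with Zfp697 placed against the rest of the family. Members were all genes whose symbol was Zfp, digits and at most 1 trailing letter, and whose mean over the 6 libraries was at least 10 CPM (a gene's reads per 1000000 assigned reads). Zfp36 was left out. This gave 249 members among 377 Zfp symbols and 17030 genes in the table. The members were selected on their mean level in these libraries. Zfp697 was chosen by its difference between the genotypes in the same libraries, so its values are a description and support nothing.

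RNA came from 6 male C57BL/B6 mice bearing the Lewis lung carcinoma (LLC), a transplantable tumour used to model cancer cachexia. The 3 mice called Pax7-CreERT carried a Pax7 Cre ErT allele and IKKbfl/fl, and the 3 controls carried IKKbfl/fl alone. Floxed IKKb and tamoxifen from day 10 to day 14 after tumour cell injection were thus common to all 6 mice, and the labels give no age. Cre was driven by Pax7, a gene of muscle satellite cells, so the other cells of the preparation were not targeted, and no mouse had Cre without the floxed alleles. The labels number no mice within a group, so the replicate numbers used here are names in accession order and pair no mice. By the step between low values, depth was about 4054000 to 13350000 reads a library. Ikbkb, which encodes IKKb, measured 50.8 ± 2.23 CPM in Pax7-CreERT mice and 52.5 ± 4.40 CPM in controls (SD, n = 3 each), a whole-gene level that does not show the floxed exons alone. All 5 satellite cell markers examined were present, with summed levels of 187 to 212 CPM in Pax7-CreERT libraries and 168 to 209 CPM in controls. Endothelial markers summed to 3720 to 4309 CPM in Pax7-CreERT libraries and 3522 to 4703 CPM in controls, and 4 T cell markers to 3.52 to 8.96 CPM in Pax7-CreERT libraries and 2.01 to 13.6 CPM in controls. Haemoglobin transcripts set control replicate 3 apart, at 12.6% of its CPM against 1.84% to 4.83% in the other 5 libraries. B cell markers summed to 44.0 CPM in Pax7-CreERT replicate 3 and 76.7 CPM in control replicate 3. In the remaining libraries of both genotypes they summed to 6.52 to 7.54 CPM.

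Most Zfp genes encode proteins with tandem C2H2 zinc fingers, each a small fold held by a zinc ion that can read a few bases of DNA, and some fingers bind RNA. Many members also carry a KRAB domain, which recruits the corepressor TRIM28 and the histone methyltransferase SETDB1 to silence transposable elements and nearby genes. Zfp697 has been described in mouse skeletal muscle as an RNA-binding protein induced by damage, with a part in muscle inflammation and remodelling.

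Zfp697 lies on the plus strand of chromosome 3 of mm10, from 98382481 to 98431949. Its annotated coding sequence gives a protein of 569 residues with 11 matches to the C2H2 finger pattern. None of the 50-base windows of its transcript was found in a transcript of another gene. RefSeq places a long non-coding RNA, Gm52610, across the first 32 bases of the gene as the table gives it, and that RNA was not analysed here. Gm52610 runs from 98376769 to 98382512 in RefSeq, whose span of Zfp697 begins at 98381962, before the start in the table. The sequence before the start in the table is shown because Zfp697 was the member that stood apart between genotypes. An NF-kB motif was looked for because IKKb activates NF-kB. Whether IKKb was lost in these mice was not tested, nor was any part of IKKb in the level of Zfp697. The 250 bases before its start in the table are at chr3:98382231-98382480 on the plus strand, from RefSeq on GRCm38.p6, and capitals would mark an E-box (CANNTG, the motif of myogenic helix-loop-helix factors) or the 10-base NF-kB consensus.
Zfp697: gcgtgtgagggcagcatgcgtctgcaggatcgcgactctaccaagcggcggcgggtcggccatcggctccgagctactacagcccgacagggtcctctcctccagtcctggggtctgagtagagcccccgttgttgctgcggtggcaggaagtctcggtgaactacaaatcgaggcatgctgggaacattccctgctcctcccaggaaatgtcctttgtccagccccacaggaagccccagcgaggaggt
Neither motif was found on either strand of these 250 bases. Among 27025 RefSeq genes, 3.75% held the NF-kB consensus and 66.0% an E-box in the same window. Among the 208 members with a promoter in that table the shares were 3.37% and 64.4%. A missing match says only that these letters are not in this window. The window lies inside the RefSeq spans of both Zfp697 and Gm52610, so the bases before the RefSeq span of Zfp697 were not examined.

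Zfp697 was lower in the Pax7-CreERT mice than in the controls. It measured 21.97, 15.1 and 18.7 CPM in Pax7-CreERT replicates 1, 2 and 3, and 76.1, 62.8 and 57.5 CPM in control replicates 1, 2 and 3. The groups did not overlap, and the highest Pax7-CreERT library stood well below the lowest control. These levels correspond to an estimated 209, 202 and 92.0 reads in Pax7-CreERT libraries and 455, 466 and 233 reads in control libraries. Counting alone gives an SD of 6.92% to 10.4% in Pax7-CreERT libraries and 4.63% to 6.55% in controls at these depths. The means were 18.6 ± 3.42 CPM and 65.4 ± 9.57 CPM (SD, n = 3 each), which is 3.52-fold lower in Pax7-CreERT mice. The log2 fold change, Pax7-CreERT minus control on log2(CPM + 1), was -1.77 with an SE of 0.17. In bulk samples, fewer cells that express a gene and less of its RNA per cell cannot be told apart.

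The place of Zfp697 within the family changed with genotype. On the log2 scale it lay below the median of the 248 other members in every Pax7-CreERT library, by -0.24, -0.91 and -0.50 in replicates 1, 2 and 3. It lay above that median in every control library, by 1.44, 1.16 and 1.19. Per kilobase of its longest coding transcript, of 5166 bases, Zfp697 ranked 193, 235 and 213 from the top of the 247 members with a known transcript in Pax7-CreERT replicates 1 to 3. In control replicates 1 to 3 it ranked 53, 70 and 69. It held 0.120% to 0.191% of the summed CPM of the family in Pax7-CreERT libraries and 0.523% to 0.631% in controls. The family as a whole summed to 11530 to 12640 CPM in Pax7-CreERT libraries and 10431 to 12056 CPM in controls, ranges that overlap.

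**Figure D1:**
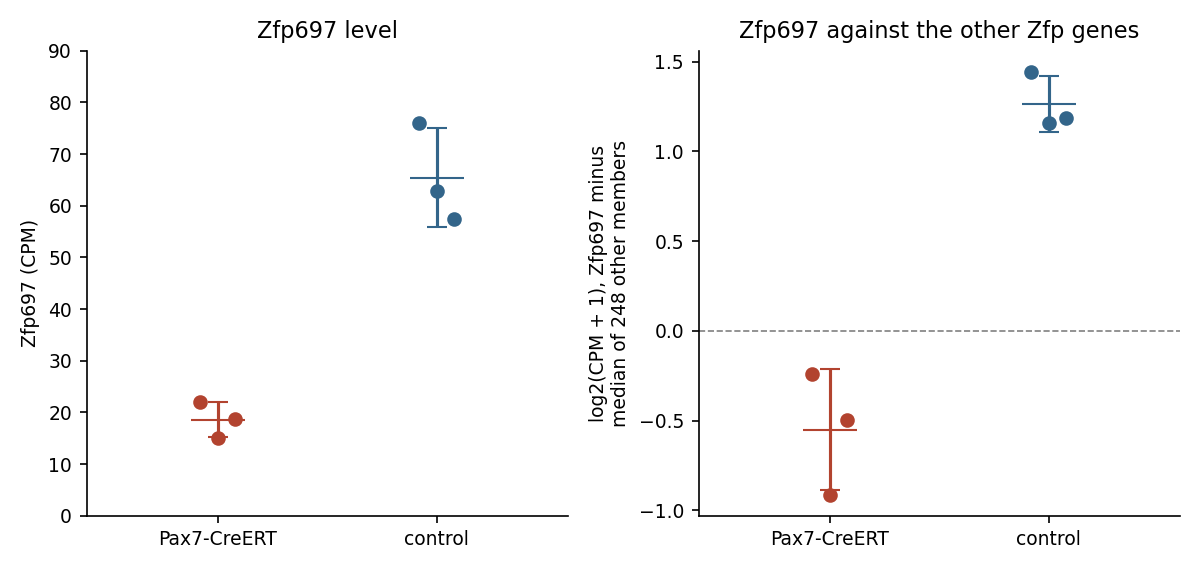
Level of Zfp697 in CPM (left) and its log2(CPM + 1) minus the median of the 248 other members (right), with 1 point per library, and the group mean and SD as line and bars. The 3 Pax7-CreERT libraries lie between 15.1 and 21.97 CPM and below the family median, and the 3 control libraries between 57.5 and 76.1 CPM and above it.

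No other member approached this difference. The log2 fold changes of the 248 others ran from -0.28 to 0.45 with a median of 0.06, and 225 of them lay within 0.25 of 0. These limits moved with single libraries, to a lowest value of -0.65 (Zfp982) without control replicate 3 and a highest of 0.74 (Zfp280c) without control replicate 1. Across all 14763 genes tested the median was 0.09 and the SD 0.26, against an SD of 0.14 over the 248 others. Of the others, 169 had a log2 fold change above 0 and 79 below. That balance depended on the scaling, since with median-of-ratios scaling 105 were above 0 and 143 below, and 119 and 129 without control replicate 3. With median-of-ratios scaling the median was 0.006 over all genes and -0.031 over the 248 others, against 0.09 and 0.06 without it. The log2 fold change of Zfp697 minus the median of the others was -1.82, also with median-of-ratios scaling and quantile normalization.

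In limma's moderated test over all genes, 1 member of 249 passed at an adjusted p under 0.05, which was Zfp697. It was also the 1 gene called among all 14763 tested, or 0.00677%, and it had been chosen by this same contrast. The call was kept without control replicate 3 (limma adjusted p = 0.00906) and lost without any 1 of the other 5 libraries (adjusted p 0.0545 to 0.231). The other 248 members did not pass, with a lowest adjusted p of 0.891 (Zfp462). At an unadjusted p under 0.05 there were 4 members, or 1.61%, where 5.52% of all genes tested reached it (4.58% higher and 0.942% lower). Besides Zfp697 these were Zfp462, Zfp516 and Zfp827, all with higher means in Pax7-CreERT mice. The count besides Zfp697 ran from 0, without Pax7-CreERT replicate 1 or 2, to 9 without control replicate 3. Leaving out Pax7-CreERT replicate 3 gave 7, leaving out control replicate 1 gave 8, and median-of-ratios scaling gave 1, so these names are not stable. The groups did not overlap for 14 members, or 5.62%, against 11% of all genes tested. Of the 14 members, 12 were higher and 2 lower, where 8.69% and 2.28% of all genes were. Genes of the mature myofibre also differed in level between the libraries, as 6 of 9 markers were higher without overlap, though none passed the test. Their summed levels were 1994 to 2767 CPM in Pax7-CreERT and 997 to 1619 CPM in control libraries. The part of that difference in the values of the Zfp genes was not tested.

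**Figure D2:**
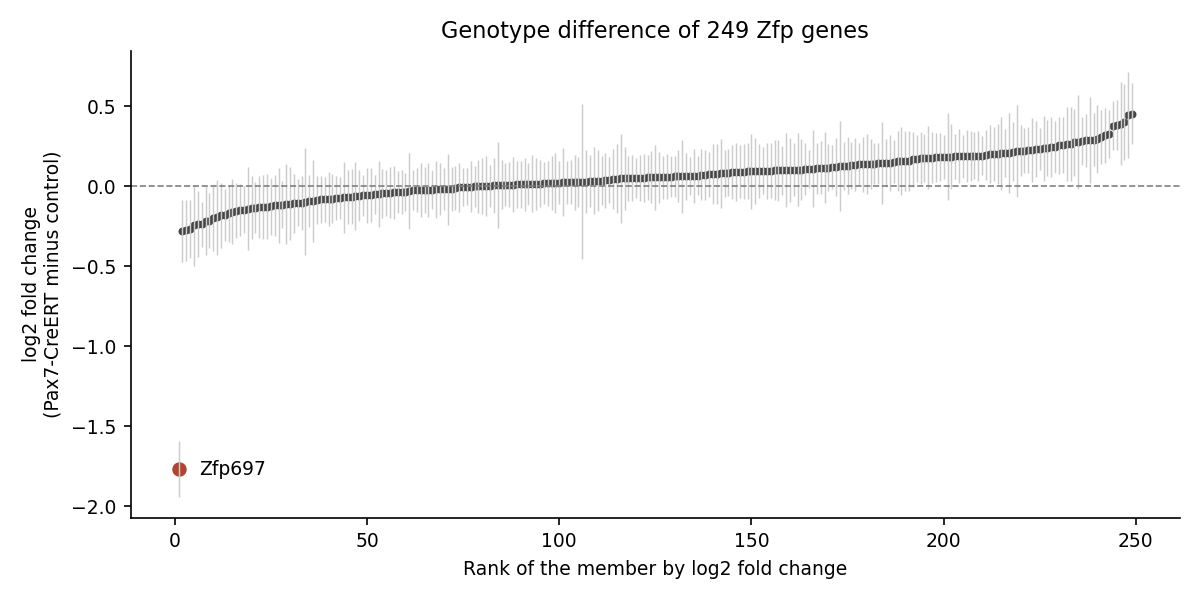
The 249 members ranked by log2 fold change (Pax7-CreERT minus control on log2(CPM + 1)), with bars of 1 SE from limma. Zfp697 stands at -1.77, and the other 248 members form a continuous band from -0.28 to 0.45 with all 6 libraries.

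The members that stood next to Zfp697 at the low end had small differences. Zfp395 measured 15.1, 10.2 and 14.9 CPM in Pax7-CreERT libraries and 15.4, 18.2 and 15.3 CPM in controls, with a log2 fold change of -0.28 (SE 0.19). It was the other member that was lower without overlap, and the gap between its groups, 15.1 against 15.3 CPM, is far inside the counting error of these libraries. Zfp658 and Zfp770 had log2 fold changes of -0.28 and -0.27, Zfp946 of -0.25, and Zfp846 and Zfp12 of -0.24. Their groups overlapped. None of these 6 passed (limma adjusted p 0.896 to 0.916).

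At the high end stood Zfp827, whose human counterpart recruits a chromatin remodelling complex to telomeres. It measured 42.7, 34.7 and 32.8 CPM in Pax7-CreERT libraries and 22.2, 34.8 and 23.7 CPM in controls, which gave 0.45 on the log2 scale (SE 0.19, limma adjusted p = 0.891). Control replicate 2 lay within the Pax7-CreERT range. Zfp280c followed at 0.44, Zfp423 at 0.40, Zfp976 at 0.39, and Zfp516 and Zfp462 at 0.38. Of these 6, Zfp462 was the 1 whose groups did not overlap, with 77.9, 70.3 and 54.8 CPM in Pax7-CreERT libraries and 50.6, 54.4 and 48.8 CPM in controls. Pax7-CreERT replicate 3 exceeded control replicate 2 by less than 1 CPM. The other members named for groups that did not overlap, Zfp518b, Zfp937, Zfp281, Zfp28 and Zfp106, had log2 fold changes of 0.19 to 0.32.

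Members with a known part in genome regulation did not pass the test. Of 14 such genes, 10 had log2 fold changes above 0 and 4 below, with a median of 0.12. Over all genes tested, 68.0% were above 0 and the median was 0.09. Zfp462 and Zfp281 were the 2 genes of this list higher without overlap, where 8.69% of all genes tested were. Zfp57 and Zfp445, which protect DNA methylation at imprinted genes, measured 12.9 ± 0.574 and 234 ± 17.1 CPM in Pax7-CreERT mice, and 13.2 ± 1.41 and 220 ± 32.8 CPM in controls (SD, n = 3 each). Zfp809, which silences retroviral DNA, measured 23.5 ± 3.11 CPM in Pax7-CreERT mice and 21.4 ± 5.94 CPM in controls. Zfp568, a repressor of a placental Igf2 transcript, measured 65.7 ± 6.01 CPM in Pax7-CreERT mice and 58.4 ± 12.6 CPM in controls. Zfp143, an activator of housekeeping and small nuclear RNA promoters, stood at 43.1 ± 5.09 CPM in Pax7-CreERT mice and 43.8 ± 4.15 CPM in controls. Zfp148, a factor of GC-rich promoters, measured 155 ± 8.59 CPM in Pax7-CreERT mice and 156 ± 16.4 CPM in controls, with 95% bounds of -0.29 and 0.29 on its log2 fold change.

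The corepressor machinery that KRAB members use was likewise not called. Of 19 genes listed, 18 were tested, 17 had log2 fold changes above 0 and 1 below, with a median of 0.15, and 0 passed. Over all genes tested 68.0% were above 0, with a median of 0.09. Trim28 measured 35.2, 36.1 and 30.1 CPM in Pax7-CreERT libraries and 34.4, 37.9 and 20.5 CPM in controls, where control replicate 3 was lowest. Setdb1 was the 1 gene of the list whose groups did not overlap, at 24.7, 29.2 and 27.7 CPM in Pax7-CreERT libraries and 20.7, 24.7 and 22.9 CPM in controls (limma log2 fold change 0.25, adjusted p = 0.896), where 11% of all genes did not overlap. Cbx5, which encodes heterochromatin protein HP1 alpha, measured 253 ± 21.5 CPM in Pax7-CreERT mice and 242 ± 19.6 CPM in controls (SD, n = 3 each).

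Members known from mesenchymal, adipose and muscle cells did not pass either. All 9 of those on the list had log2 fold changes above 0, with a median of 0.20, beside 68.0% above 0 and a median of 0.09 over all genes tested. This direction was not fixed, as Zfp609 changed sign under 1 of 13 alternatives and Zfp638 under 2. With median-of-ratios scaling Zfp638 was at 0.017 and Zfp608 at 0.019. Zfp423, a regulator of preadipocyte commitment, measured 45.0, 41.4 and 24.4 CPM in Pax7-CreERT libraries and 28.8, 31.1 and 21.5 CPM in controls. Zfp521, which restrains adipogenesis, measured 165, 156 and 93.4 CPM in Pax7-CreERT libraries and 116, 120 and 93.5 CPM in controls. In both genes Pax7-CreERT replicates 1 and 2 were high and replicate 3 was low. Zfp516, an activator of brown fat genes, measured 107, 90.2 and 76.5 CPM in Pax7-CreERT libraries and 64.0, 78.5 and 65.4 CPM in controls. Zfp106, an RNA-binding protein whose loss in mice leads to degeneration of motor nerves and muscle, measured 303, 288 and 275 CPM in Pax7-CreERT libraries and 249, 264 and 245 CPM in controls. Its groups did not overlap, and its log2 fold change was 0.19 (SE 0.12, limma adjusted p = 0.896), or 0.10 with median-of-ratios scaling. The 4 markers of fibro-adipogenic progenitors summed to 3315, 1908 and 1988 CPM in Pax7-CreERT libraries and 2087, 2045 and 3162 CPM in controls. The sum was highest in Pax7-CreERT replicate 1 and control replicate 3. So was Dcn, at 2486, 1235 and 1358 CPM in Pax7-CreERT libraries and 1445, 1291 and 2545 CPM in controls. Lum was highest in Pax7-CreERT replicates 1 and 2, at 115, 67.9 and 42.7 CPM in Pax7-CreERT libraries and 40.6, 34.4 and 48.4 CPM in controls. Of the 4 markers, 2 had log2 fold changes above 0, with Lum at 0.76, Pdgfra at 0.40 and Dcn at -0.06. The part of those cells in the Zfp values was not tested.

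Members tied to immune signalling, RNA and protein quality control divided into 5 above 0 and 3 below, with a median of 0.04. The share above 0 over all genes tested was 68.0%, with a median of 0.09. Zfp91, an E3 ligase that acts on the NF-kB inducing kinase NIK, was among the steadiest members, at 257, 275 and 284 CPM in Pax7-CreERT libraries and 274, 288 and 273 CPM in controls. Its log2 fold change was -0.04 with 95% bounds of -0.31 and 0.23. Zfp366, known as DC-SCRIPT from dendritic cells, measured 94.4 ± 11.4 CPM in Pax7-CreERT mice and 106 ± 23.4 CPM in controls (SD, n = 3 each). Zfp598, which marks collided ribosomes, measured 26.8 ± 2.49 CPM in Pax7-CreERT mice and 26.5 ± 2.42 CPM in controls. Zfp622, a factor of large ribosomal subunit assembly, measured 40.7 ± 3.47 CPM in Pax7-CreERT mice and 39.1 ± 4.01 CPM in controls. The groups overlapped in all 8 genes of this list, which is too short to differ from the 11% without overlap over all genes tested.

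**Figure D3:**
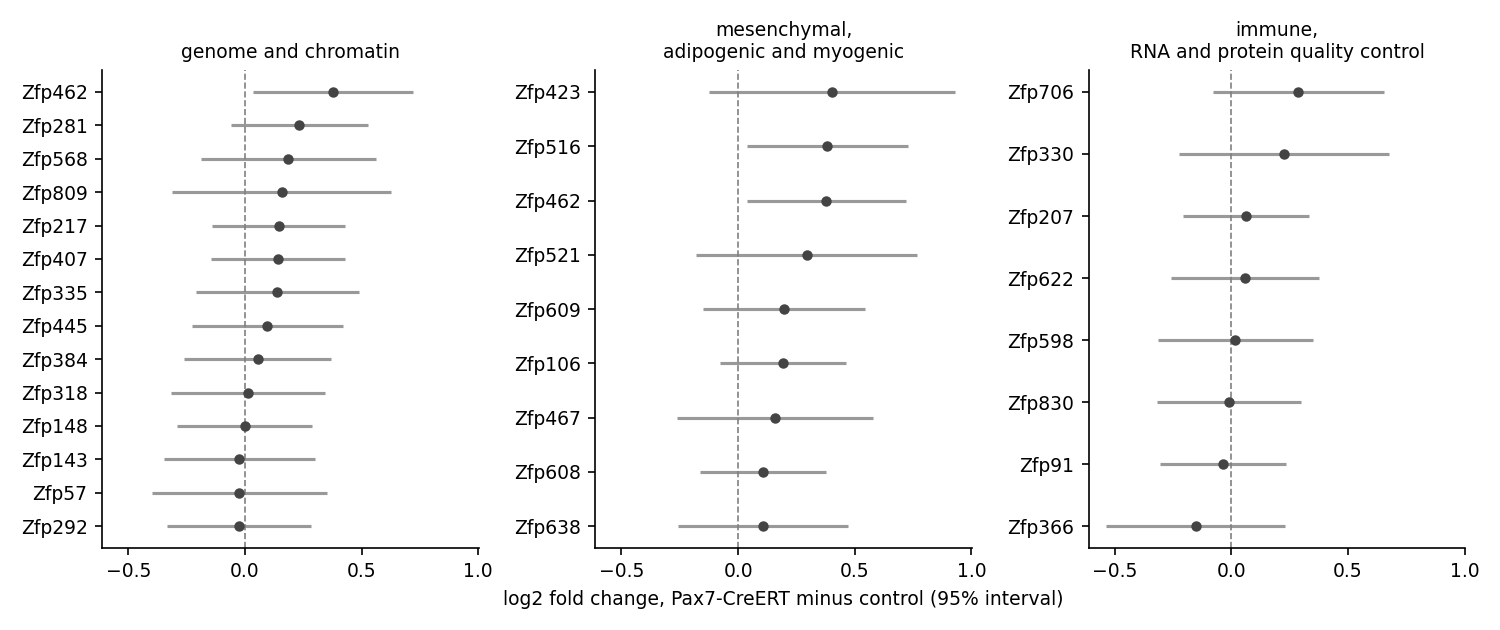
Log2 fold change (Pax7-CreERT minus control) with 95% interval from limma for members on 3 role lists, with Zfp462 on both of the first. All points lie between -0.15 and 0.40, and the intervals of Zfp462 and Zfp516 are the ones that leave out 0.

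By level, the members ranged from a mean of 10.2 CPM to 345 CPM with a median of 26.5 CPM. Zfp871, Zfp644 and Zfp292 had the highest means in CPM, at 345, 310 and 309.9. Zfp871 measured 347 ± 26.5 CPM in Pax7-CreERT mice and 342 ± 21.6 CPM in controls (SD, n = 3 each). The members just inside the level rule were Zfp93, Zfp951 and Zfp362 at means of 10.2, 10.3 and 10.3 CPM, with log2 fold changes of 0.29, -0.12 and 0.10. Those just outside were Zfp213, Zfp939 and Zfp963 at 9.89, 9.88 and 9.74 CPM, with log2 fold changes of -0.09, -0.14 and -0.10.

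Of the 128 Zfp symbols under 10 CPM, 112 were tested and had log2 fold changes from -1.94 to 1.62. The low extreme was Zfp433 on chromosome 10 (81704825 to 81881086), named after its values were seen. It measured 0.0542, 0.134 and 0.0676 CPM in Pax7-CreERT libraries and 3.21, 2.95 and 3.31 CPM in controls. That is an estimated 0.51, 1.79 and 0.33 reads in Pax7-CreERT libraries against 19.2, 21.9 and 13.4 reads in controls, and the fractions are not whole reads. Another Zfp gene, Zfp781 (81742821 to 81930512), overlaps its span, so the level of Zfp433 is uncertain. Its log2 fold change was -1.94 (SE 0.26, limma adjusted p = 0.158), and the adjusted p was 0.041 when no filter on low values was used. So Zfp697 had the largest difference of the 249 members and, by this uncertain level of Zfp433, not of all Zfp symbols. The next lowest was Zfp85 at -0.62 (5.56 ± 1.57 CPM in Pax7-CreERT mice and 8.88 ± 0.877 CPM in controls, SD, n = 3 each).

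Zfp697 was not at an extreme of the protein features counted. Coding sequences were found for 247 members, and 235 of them had 2 or more matches to the finger pattern, with a median of 11 and up to 36 in Zfp142. Zfp697 shared its 11 matches with others, as 23 members in all had that number. A pattern of the KRAB domain was found in 127 members and not in 120, Zfp697 among the 120, though the pattern misses diverged KRAB domains. The log2 fold changes had a median of 0.05 in the 127 and 0.06 in the 119 others without Zfp697. An unadjusted p under 0.05 was reached by 0 of the 127 and 3 of the 119, beside 5.52% of all genes tested, and the classes were not tested against each other.

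After each gene was centred on its own mean, members with the KRAB pattern had a median of -0.05, 0.11 and 0.02 in Pax7-CreERT replicates 1 to 3 and of 0.09, 0.02 and -0.20 in control replicates 1 to 3. Members without it had 0.01, 0.11 and 0.02 in Pax7-CreERT replicates and 0.001, 0.02 and -0.12 in controls. Control replicate 3 was lowest in both kinds, and in all genes tested (-0.12). It also had the highest share of haemoglobin and the fewest reads. With CPM computed without haemoglobin genes, 130 of the 248 other members had log2 fold changes above 0 and 118 below, with a median of 0.0046. The part of read depth was not tested.

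**Figure D4:**
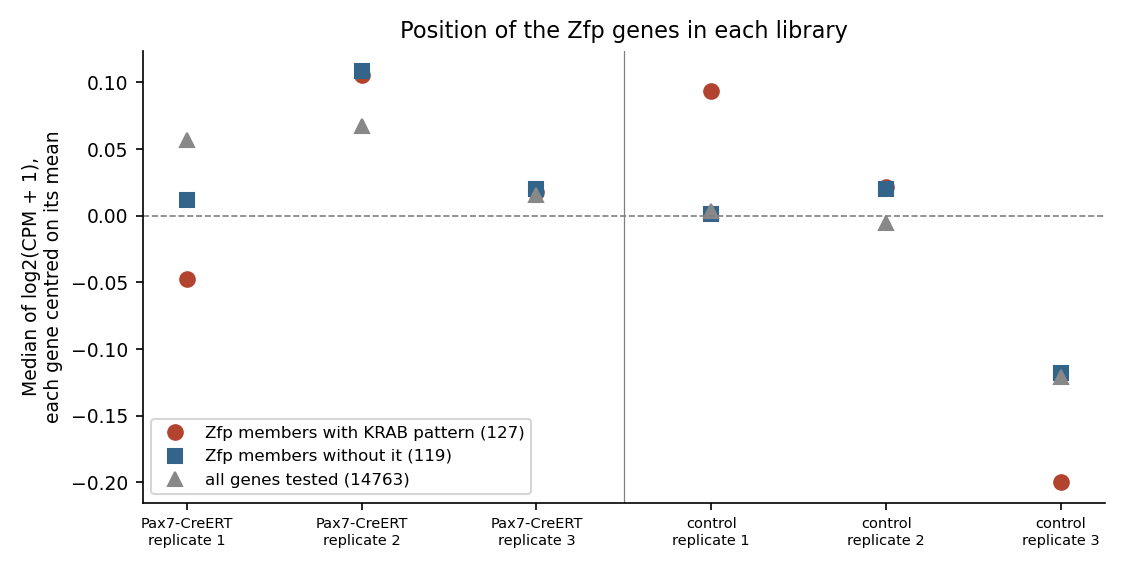
Median over genes of log2(CPM + 1), each gene centred on its mean over the 6 libraries, for 127 members with the KRAB pattern, 119 without it and all 14763 genes tested. Control replicate 3 is lowest in all 3 sets, at -0.20, -0.12 and -0.12.

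By position, 57 members lay on chromosome 7, 32 on chromosome 17 and 19 on chromosome 13. With members placed in a cluster when each starts within 1000000 bases of the last, 13 clusters of at least 5 members held 104 members. Zfp697 was in none of them. The largest, on chromosome 17 from 21008941 to 23599487, held 16 members with log2 fold changes from -0.25 to 0.26. Over the 13 clusters the median log2 fold change ran from -0.06 to 0.15. Phgdh, an enzyme of serine synthesis and the nearest gene of the table on the low side of Zfp697, measured 2.92 ± 0.586 CPM in Pax7-CreERT mice and 2.20 ± 0.447 CPM in controls (SD, n = 3 each). On the other side Hsd3b4 measured 0.526, 0.132 and 1.602 CPM in Pax7-CreERT libraries and 1.63, 1.597 and 1.29 CPM in controls. Gm10681, whose span in the table lies within that of Hsd3b4, was listed at 0.0001, 0.168 and 0.230 CPM in Pax7-CreERT libraries and at 1.21, 0.828 and 0.685 CPM in controls. Overlapping genes of this kind are uncertain, and both levels are near the lower limit of these libraries.

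The chromosome 4 cluster, described after its values were seen, had the highest median spread of the 13. On chromosome 4 from 147443114 to 147848418, 5 members had a median spread within groups of 0.41 on the log2 scale, against 0.19 over all members. Zfp982 had the largest spread of all 249 members, at 47.6, 91.7 and 51.5 CPM in Pax7-CreERT libraries and 88.4, 104 and 22.7 CPM in controls. Zfp979 measured 138, 175 and 143 CPM in Pax7-CreERT libraries and 184, 205 and 90.5 CPM in controls. In both genes Pax7-CreERT replicate 2 and control replicates 1 and 2 were high, and Pax7-CreERT replicates 1 and 3 and control replicate 3 were low. Zfp984 and Zfp985 ran from 15.8 to 31.3 CPM and from 11.8 to 26.001 CPM with the lowest value again in control replicate 3 and the highest in control replicate 2. Zfp933 in the same cluster ran from 39.9 to 49.5 CPM. The log2 fold change of Zfp982 was 0.03 with 95% bounds of -1.06 and 1.11, and -0.65 without control replicate 3.

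The promoters of Zfp979, Zfp982, Zfp984 and Zfp985 are shown because these genes were all lowest in control replicate 3. All 4 were also highest in control replicate 2. Zfp985 did not follow Zfp982 and Zfp979 in every library, with 18.0 and 18.1 CPM in Pax7-CreERT replicates 2 and 3. Any part of promoter likeness in these levels was not tested. Each line gives 250 bases before a RefSeq start on GRCm38.p6, with E-boxes (CANNTG) in capitals. They lie at chr4:147642509-147642758 on the minus strand for Zfp979, at chr4:147492167-147492416 on the plus strand for the second start of Zfp982, at chr4:147809789-147810038 on the minus strand for Zfp984, and at chr4:147553027-147553276 on the plus strand for Zfp985.
Zfp979: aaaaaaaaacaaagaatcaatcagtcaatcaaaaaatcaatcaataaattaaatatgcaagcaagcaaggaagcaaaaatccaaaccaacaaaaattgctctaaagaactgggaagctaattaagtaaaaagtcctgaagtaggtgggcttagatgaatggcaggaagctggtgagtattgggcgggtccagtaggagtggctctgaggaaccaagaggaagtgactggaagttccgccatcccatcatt
Zfp982: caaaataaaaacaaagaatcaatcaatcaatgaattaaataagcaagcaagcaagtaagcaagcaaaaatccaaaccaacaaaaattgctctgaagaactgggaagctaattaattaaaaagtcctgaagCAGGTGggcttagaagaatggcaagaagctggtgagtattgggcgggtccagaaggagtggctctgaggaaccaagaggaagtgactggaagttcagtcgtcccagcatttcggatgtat
Zfp984: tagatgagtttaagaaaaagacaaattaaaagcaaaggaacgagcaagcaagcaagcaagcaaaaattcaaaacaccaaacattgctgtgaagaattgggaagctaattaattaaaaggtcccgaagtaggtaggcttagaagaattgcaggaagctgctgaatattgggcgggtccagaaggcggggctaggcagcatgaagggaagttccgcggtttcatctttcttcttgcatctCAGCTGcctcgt
Zfp985: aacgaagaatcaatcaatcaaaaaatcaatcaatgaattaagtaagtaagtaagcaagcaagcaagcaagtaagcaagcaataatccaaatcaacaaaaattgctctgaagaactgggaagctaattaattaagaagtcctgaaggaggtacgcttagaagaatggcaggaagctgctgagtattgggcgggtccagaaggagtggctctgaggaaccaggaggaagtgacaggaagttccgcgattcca
Aligned end to end, Zfp979 shared 83.6% of aligned positions with this second start of Zfp982 and 80.1% with Zfp985. The second start is shown because it was the most like the others. The first start of Zfp982, which is its start in the table, shared 43.2% with Zfp979, and the third 44.4%. Zfp984 shared 65.3% to 70.1% with the other 3, and the promoter of Zfp697 shared 41.3% to 44.4% with the 4 printed. Reads from such copies can be divided or misplaced in counting. Of the 50-base windows of the transcript, 54.6% in Zfp984, 24.6% in Zfp979 and 11.9% in Zfp982 also occurred in transcripts of another gene. Over the family 24 of 247 members shared over 20% of their windows, and these levels are uncertain. Zfp966 and Zfp967 had identical values in every library and the same span in the table, so they count as 1 measurement.

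Zfp990, on chromosome 4 as well (145510759 to 145538251) and under the level rule at a mean of 7.29 CPM, was named after its values were seen. It measured 17.0, 1.498 and 14.5 CPM in Pax7-CreERT libraries and 1.003, 0.135 and 9.62 CPM in controls. It was high in the 3 libraries where Zfp982 and Zfp979 were low, and low in the 3 where they were high, and each set held mice of both genotypes. Its highest and lowest libraries differed 126-fold, the lowest resting on an estimated 1 read, while the ratio over the 249 members had a median of 1.44.

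**Figure D5:**
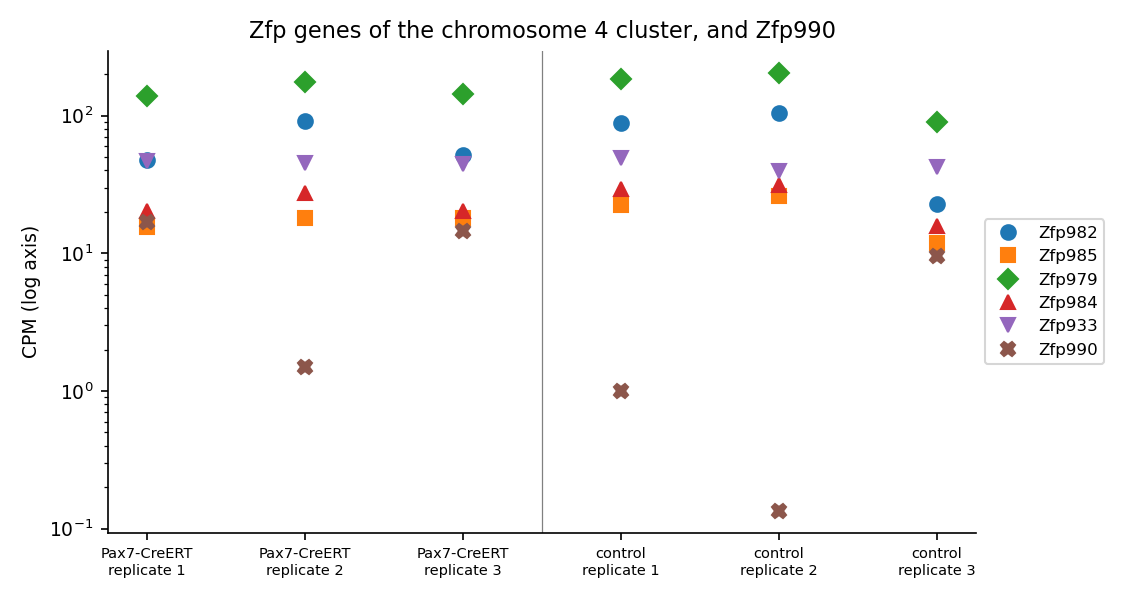
CPM on a log axis in each library for the 5 members of the chromosome 4 cluster and for Zfp990. Zfp982 and Zfp979 are lowest in control replicate 3 (22.7 and 90.5 CPM), and Zfp990 is high in Pax7-CreERT replicates 1 and 3 and control replicate 3.

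The genes whose log2 levels were most like those of Zfp697 over the 6 libraries were Plod3, Nup93, Dnah3, Zfp433 and Coch, with Pearson correlations of 0.98, 0.98, 0.97, 0.97 and 0.97. Among members the nearest were Zfp61 at 0.72, Zfp870 at 0.69 and Zfp395 at 0.68. Plod3, Nup93, Dnah3, Zfp433 and Coch were all lower without overlap in Pax7-CreERT libraries, and 6 libraries in 2 groups that do not overlap give high correlations. Plod3, a collagen lysyl hydroxylase, measured 21.03 ± 0.399 CPM in Pax7-CreERT mice and 24.0 ± 0.584 CPM in controls (SD, n = 3 each). Nup93, a nuclear pore protein, measured 4.12 ± 0.0640 CPM in Pax7-CreERT mice and 5.97 ± 0.200 CPM in controls. Dnah3, an axonemal dynein heavy chain, measured 12.2 ± 2.27 CPM in Pax7-CreERT mice and 24.96 ± 4.50 CPM in controls, a log2 fold change of -0.98 (SE 0.20). None of the 5 passed (lowest limma adjusted p 0.158, for Zfp433).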

How the data were processed

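RNA of muscle mononuclear cells was sequenced from strand-specific libraries, per the labels' protocols. The deposited values are CPM, read from the values themselves because each library sums to 1000000 plus a constant of 0.0001 per gene. The submitters' processing notes name Partek, DESeq2 and mm10, without roles. The aligner, counter and annotation release are not given in the sources used here. Depth was estimated from the step between low values. Of values up to 20 reads, 92.9% to 94.1% were whole within 0.05 read, under the 95% required, so reads were not recovered and no count test was run. Estimated reads and their errors cover counting only.

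The genotype test was limma (version 3.58.1, under R version 4.3.3) with a mean-variance trend on log2(CPM + 1). It covered the 14763 genes that reached 1 CPM in 3 or more libraries, with Benjamini-Hochberg adjustment over all of them. The fit was tested on simulated data that held no shift of whole libraries, and no result here rests on that test. Fold changes of low genes are understated on this scale. Each sample is 1 mouse by its labels, and p-values measure the spread between these samples. Genes were named by a fixed rule: extremes of fold change, groups without overlap, neighbours of the level rule, highest means, role lists, neighbours of Zfp697, and likeness to it. Genes described for their spread, and Zfp433 and Zfp990, were chosen after their values were seen. One gene that the rule names is not reported here. The members and lists were chosen with earlier results of these data known. Transcript lengths, C2H2 and KRAB patterns and shared 50-base windows came from GENCODE M21, and promoters from RefSeq GRCm38.p6. No value column was left unused. Stop coordinates were reduced by 1 base. Alternatives were a pseudocount of 0.25, no filter, other scalings, library weights, other level rules and leaving out each library.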

Additional observations from a re-analysis of the deposited data

How the results depend on the processing

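The log2 fold change of Zfp697 stayed between -1.63 and -1.89 when each library was left out in turn, and between -1.77 and -1.85 under the other alternatives listed in the methods. Without each library in turn, the number of genes called at a limma adjusted p under 0.05 ran from 0 to 1, and so did the number of members called. The call was kept without control replicate 3 (adjusted p = 0.00906) and was lost without any of the other 5 libraries (adjusted p 0.0545 to 0.231). With no filter on low values 2 genes were called, Zfp697 and Zfp433. Without both Pax7-CreERT replicate 1 and control replicate 3, an alternative added after seeing the data, 2 genes were called, and Zfp697 was at -1.97. The median log2 fold change of the 249 members was -0.0315 with median-of-ratios scaling, against 0.0557. The stricter KRAB pattern placed 79 members in that class, against 127. With a mean of at least 5 or 20 CPM as the level rule, 1 member was called, as with 10. Of 55 named members other than Zfp697, 26 changed sign under at least 1 of 13 alternatives, and none of the 55 had passed the test. No paired analysis was possible because the labels give no replicate numbers, and those used here only name the libraries. The shallowest library, at an estimated 4054000 reads, gives a counting SD of 15.7% at 10 CPM. How small a difference of the faintest members could be detected was not tested.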
